A study of Mus musculus with 18 samples.

Results

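The 10 integrin subunit genes used by macrophages were followed through a glucocorticoid time course: Itgam, Itgax, Itgal and Itgb2 of the β2 family, Itgav, Itgb3 and Itgb5 of the αv family, and Itga4, Itga5 and Itgb1 of the β1 family. They are 10 of the 17020 genes with a named probe set, listed by gene symbol. The list was drawn up with earlier results of these data known. All 10 passed the filter on dim genes that left 13190 genes for testing. The 10 genes had 25 probe sets, and the brightest of each gene stood for it. The cells were macrophages grown for 1 week out of the bone marrow of 3 male C57BL/6 mice aged 10 weeks, in 10% fetal calf serum with recombinant human CSF1 at 10000 U/ml, then replated in the same factors. They received 100 nM dexamethasone for 1, 2, 4, 10 or 24 h or were collected at baseline, with 3 biological replicates in each of the 6 groups and 18 Affymetrix arrays in all. CSF1 and serum were thus present in every group, baseline included. Dexamethasone is a synthetic ligand of the glucocorticoid receptor. All times were compared with 1 baseline group, and no untreated arrays of the later times were analysed here, so the drug and the time in culture cannot be told apart.

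Integrins are adhesion receptors made of an α and a β chain that hold a cell to matrix or to another cell, and both chains are needed for the receptor to reach the surface. In macrophages the β2 chain pairs with αM (the complement receptor also called CD11b/CD18), αX (CD11c) and αL (LFA-1, a receptor for ICAM proteins). The αv chain pairs with β3 or β5 in receptors for vitronectin and for the bridging protein on apoptotic cells, and the β1 chain pairs with α4 in a receptor for VCAM-1 and with α5 in the receptor for fibronectin. The arrays measure transcript, not receptor at the surface.

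Promoter windows are shown for 4 members that lay in opposite directions: Itgam and Itgax, which are neighbouring protein-coding genes, and Itgav and Itgb5, whose products form 1 receptor. The windows reach from 250 bases before to 50 bases after a start site of the gene, are from RefSeq (GRCm38.p6), and all lie on the plus strand, at chr7:128062390-128062689 for Itgam, chr7:128129300-128129599 for Itgax, chr2:83724147-83724446 for Itgav and chr16:33829415-33829714 for Itgb5. For Itgav and Itgax the start site used lies inside the annotated span of the gene and not at its outermost base. Capitals mark matches, on either strand, to the core of the myeloid factor PU.1 (GAGGAA), to AP-1 (TGANTCA) or to a GC box (GGGCGG).
Itgam: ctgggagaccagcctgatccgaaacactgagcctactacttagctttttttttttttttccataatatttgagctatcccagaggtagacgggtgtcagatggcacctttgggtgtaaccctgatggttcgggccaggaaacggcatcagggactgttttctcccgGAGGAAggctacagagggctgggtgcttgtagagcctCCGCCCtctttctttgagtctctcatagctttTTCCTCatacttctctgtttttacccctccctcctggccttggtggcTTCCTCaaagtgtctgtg
Itgax: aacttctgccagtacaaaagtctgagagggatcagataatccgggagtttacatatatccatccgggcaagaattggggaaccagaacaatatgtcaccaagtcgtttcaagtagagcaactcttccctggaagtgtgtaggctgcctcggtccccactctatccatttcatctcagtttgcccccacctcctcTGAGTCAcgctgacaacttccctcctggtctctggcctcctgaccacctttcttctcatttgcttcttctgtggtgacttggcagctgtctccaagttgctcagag
Itgav: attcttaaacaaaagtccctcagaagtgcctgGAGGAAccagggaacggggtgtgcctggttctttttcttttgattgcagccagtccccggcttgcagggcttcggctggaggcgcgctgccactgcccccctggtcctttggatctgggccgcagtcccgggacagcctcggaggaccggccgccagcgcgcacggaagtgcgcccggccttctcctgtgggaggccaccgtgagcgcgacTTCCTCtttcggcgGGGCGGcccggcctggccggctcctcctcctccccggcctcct
Itgb5: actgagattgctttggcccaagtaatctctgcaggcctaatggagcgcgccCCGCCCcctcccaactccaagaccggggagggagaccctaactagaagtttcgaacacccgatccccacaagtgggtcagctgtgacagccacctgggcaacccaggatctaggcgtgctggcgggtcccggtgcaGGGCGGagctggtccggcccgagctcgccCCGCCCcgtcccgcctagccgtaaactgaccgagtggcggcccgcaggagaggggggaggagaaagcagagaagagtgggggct
The Itgam window held 3 matches to the PU.1 core, which occurs in 28.3% of 32851 promoter windows of the same length, and 1 GC box, which occurs in 35.7%. The Itgax window held neither and had 1 AP-1 match, found in 7.81% of windows. Itgav had 2 PU.1 cores and 1 GC box, and Itgb5 had 3 GC boxes and no PU.1 core. The GC content was 50.3% for Itgam, 67.3% for Itgav and 65.7% for Itgb5. Windows were matched for 7 of the 10 members, the other 3 being Itgal, Itgb2 and Itgb3. None of the 7 windows held the palindromic glucocorticoid response element (in 0.475% of all windows) or the TATA box (TATAAA, in 13.6%), which says only that these letters were not in these windows. The searched motifs do not overlap each other in the 4 windows, and a match is no measured binding site.

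Within a group, replicate arrays had a Pearson r of 0.9952 to 0.9972 across genes, and 68.3% to 80.7% of the genes tested exceeded the background of their own array. That level came from control probe sets and ran from 3.62 to 4.22 log2 over the arrays. Its mean, 3.87, was the level set against the group means of marker genes below. Transcripts known to be induced by glucocorticoids marked the treated arrays: Fkbp5 rose by 3.54 ± 0.07, Dusp1 by 2.29 ± 0.09, Tsc22d3 by 2.24 ± 0.06 and Per1 by 2.07 ± 0.10 log2 at 24 h (limma SE, n = 3 per group). The receptor gene Nr3c1 was at -0.15 ± 0.08 log2 at 24 h (limma adjusted p = 0.255). Of these 5 genes limma called 4 upward and 1 downward at 4 h, and 4 upward and 0 downward at 2, 10 and 24 h. All 8 macrophage markers on the array, among them Adgre1, Csf1r and Cd68, were above background in every group, with a summed intensity of 22660.8 to 23160.5 at 24 h and 22177.0 to 22974.9 at baseline. The 9 neutrophil markers summed to 597.3 to 723.8 at 24 h, against 727.3 to 1187.1 at baseline, with 5 of 9 above background at 24 h and 7 of 9 at baseline. The 3' minus 5' difference of Gapdh, a sign of RNA quality, was 0.20 ± 0.03 log2 at 24 h and 0.06 ± 0.03 log2 at baseline (SD, n = 3). That of Actb was 0.43 ± 0.03 log2 at 24 h and 0.38 ± 0.02 log2 at baseline (SD, n = 3). The part of neutrophil RNA or RNA quality in the integrin results was not tested. In bulk RNA, fewer cells of a type and less RNA per cell cannot be told apart.

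The integrin genes moved in both directions, with most calls at 10 and 24 h. At 24 h 7 of 10 members changed, 3 upward (Itgam, Itgal and Itgb5) and 4 downward (Itgax, Itgav, Itgb3 and Itgb1), where 12.7% of all tested genes were called, 7.38% upward and 5.34% downward (limma, Benjamini-Hochberg adjusted p under 0.05). At 10 h 4 members were called, Itgam and Itgb5 upward and Itgav and Itgb3 downward, against 14.4% of all genes (8.29% upward, 6.16% downward). At 4 h only Itgav was called (7.52% of all genes), and at 2 h only Itga5 (2.15% of all genes). At 1 h limma called 0 members, 2 having an unadjusted p under 0.05, where 0.387% of all genes were called. The median change of the members at 24 h was -0.06 log2, beside 0.01 log2 over all tested genes. The F test over all 5 times called 7 of 10 members, where 17.4% of all genes were called. It left out Itgal (adjusted p = 0.161), Itgb2 (adjusted p = 0.191) and Itgb1 (adjusted p = 0.11).

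**Figure D1:**
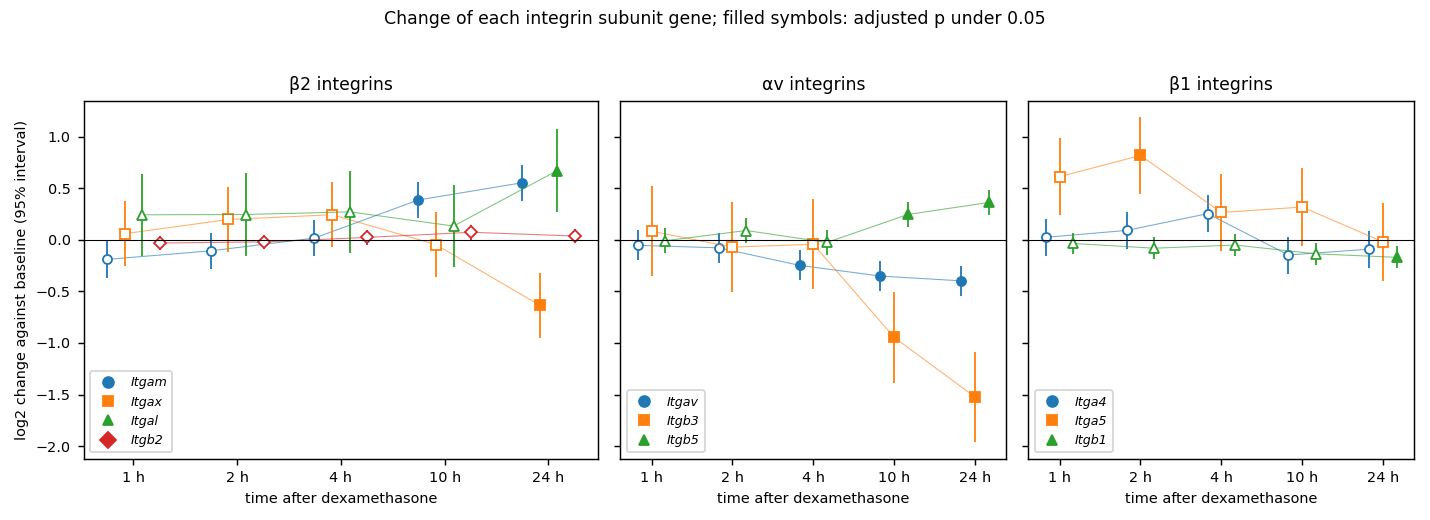
Log2 change against baseline (vertical axis) at 1, 2, 4, 10 and 24 h of dexamethasone (horizontal axis), 1 panel per integrin family, from limma with n = 3 per group; bars are 95% intervals and filled symbols passed the test. Itgb3 held the lowest value, -1.52 at 24 h, and the largest early rise was that of Itga5, 0.82 at 2 h.

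In the β2 family, 2 α chains rose, 1 fell, and the shared β chain passed no test. Itgam, the αM chain, had log2 intensities of 10.51, 10.35 and 10.39 at 24 h, against 9.98, 9.86 and 9.76 at baseline. All 3 arrays at 24 h lay above all 3 at baseline, and the means differed by 0.55 ± 0.09 log2, or 147% of the baseline intensity (adjusted p = 4.2e-05). At 10 h the arrays were at 10.20, 10.24 and 10.31 and Itgam was higher by 0.39 ± 0.09 log2 (limma adjusted p = 0.00231). At 1 h its arrays, at 9.71, 9.68 and 9.63, all lay below baseline, by -0.19 ± 0.09 log2, which did not pass the test (limma adjusted p = 0.999, unadjusted 0.0348). At 2 and 4 h the values ran from 9.60 to 10.06 and overlapped baseline. Neutrophils carry Itgam too, and their part in its rise was not tested. Its F test adjusted p of 6.59e-07 was the smallest among the members.

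Itgax, the αX chain used as a marker of dendritic cells, was dim and was called first at 24 h. Its arrays were at 4.19, 4.03 and 4.10 log2 at 24 h, against 4.90, 4.77 and 4.55 at baseline. No array at 24 h reached the lowest baseline array, and the change was -0.63 ± 0.15 log2, or 64.4% of baseline (limma adjusted p = 0.00582). The 24 h values were close to background. All 3 exceeded the level of their own array but lay within the 3.62 to 4.22 log2 span of that level over the arrays. At 10 h it was 4.53, 4.94 and 4.62, which overlaps baseline. Of the 3 dendritic cell markers on the array, Cd209a was above background at baseline and none was at 24 h, with summed intensities of 32.9 to 36.6 at 24 h and 38.2 to 42.3 at baseline. What that has to do with Itgax was not tested.

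Itgal, the αL chain, had 6.55, 6.16 and 5.84 log2 at 24 h, against 5.81, 5.20 and 5.54 at baseline. The groups did not overlap, although the lowest array at 24 h stood close to the highest at baseline. The change of 0.67 ± 0.19 log2, or 159% of baseline, passed the test (limma adjusted p = 0.0212). The call rested on single arrays: it was lost without 24 h replicate 1, which gave 0.49 (adjusted p = 0.152), and without baseline replicate 2, which gave 0.51 (adjusted p = 0.135), with a range of adjusted p of 0.000987 to 0.484 over 31 alternatives. At 1, 2, 4 and 10 h Itgal was 0.24, 0.24, 0.27 and 0.13 log2 from baseline, with overlapping groups and no call. T cells and neutrophils carry this chain too. The 5 T cell markers on the array summed to 719.3 to 806.5 at 24 h and 967.1 to 1235.5 at baseline, with Cd3e and Cd28 above background in every group and Cd3d, Cd3g and Cd8a below it. The part of T cells in the rise of Itgal was not tested.

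Itgb2, the β2 chain common to these receptors, passed no test and varied little. It had 11.93, 11.96 and 11.94 log2 at 24 h and 11.89, 11.90 and 11.93 at baseline, and over all 18 arrays it ran from 11.86 to 12.02. The change at 24 h was 0.04 ± 0.03 log2 (limma adjusted p = 0.566), with a 95% interval of -0.03 to 0.11 log2. Its upper bound lay below the changes measured for Itgam and Itgal.

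**Figure D2:**
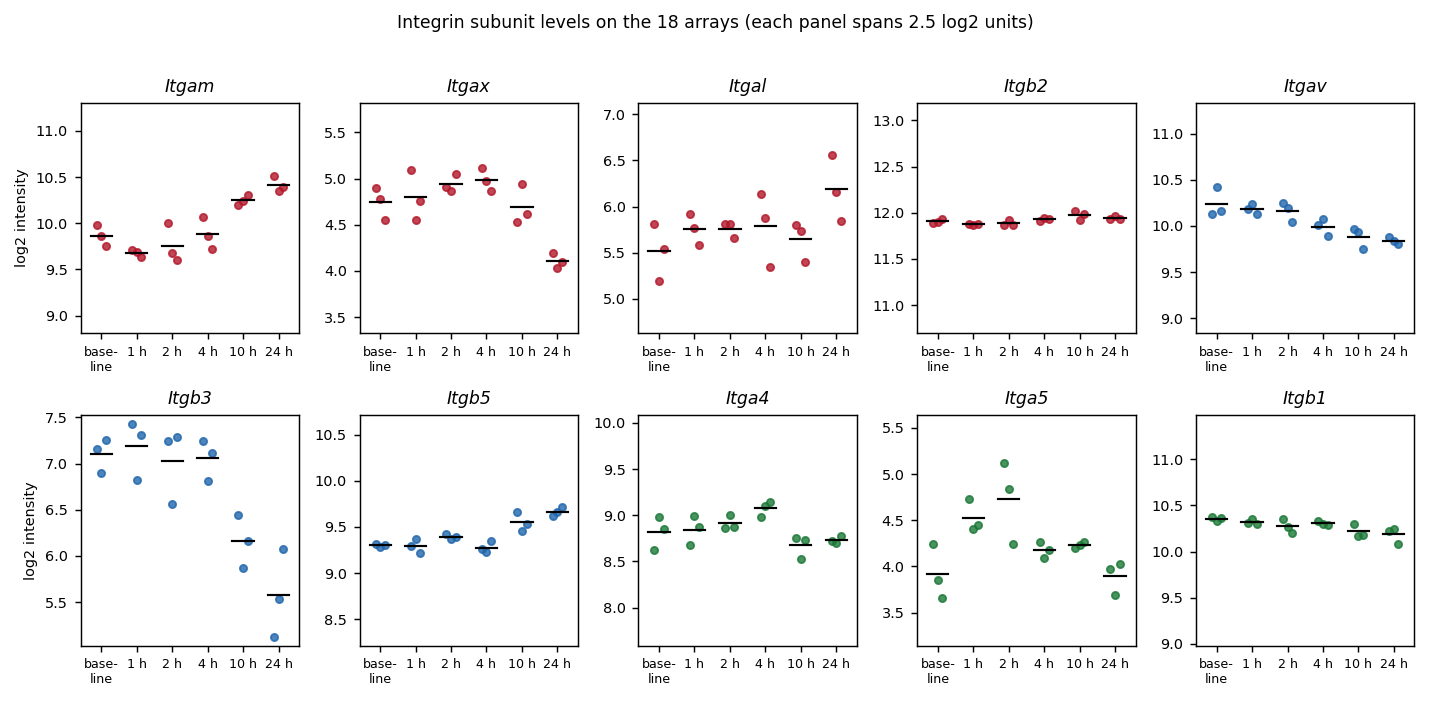
Log2 intensity of each member on every array (points, n = 3 per group) at baseline and 1, 2, 4, 10 and 24 h of dexamethasone, with a short line at each group mean. Itgb3 and Itgam part from baseline by 10 h, Itgax by 24 h, and Itgb2 stays between 11.86 and 12.02.

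In the αv family both Itgav and its β3 partner fell, while the β5 partner rose. Itgb3, the β3 chain, which platelets and osteoclasts carry in quantity, showed the lowest log2 change of the 10 genes at 24 h. Its arrays were at 5.12, 5.54 and 6.07 log2 at 24 h, against 7.15, 6.90 and 7.25 at baseline. The highest array at 24 h lay below the lowest at baseline, and the intensity was 34.8% of baseline, a change of -1.52 ± 0.21 log2 (limma adjusted p = 1.02e-05). At 10 h the arrays were at 6.45, 5.86 and 6.16 and the change was -0.95 ± 0.21 log2 (limma adjusted p = 0.00273), or 51.9% of baseline. Up to 4 h Itgb3 ranged from 6.56 to 7.43 and passed no test.

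Markers of other cells that carry β3 gave mixed values. Of 6 osteoclast markers on the array, Ctsk, Acp5 and Atp6v0d2 were above background in every group, and Calcr, Ocstamp and Oscar were below it. The 6 summed to 694.5 to 1044.5 at 24 h and 948.0 to 1205.3 at baseline. Atp6v0d2, a subunit of the osteoclast proton pump, changed by -0.52 ± 0.17 log2 at 24 h (limma adjusted p = 0.0429). Of the 4 osteoclast markers tested it was the only 1 called at 24 h, and their median change was -0.12 log2. Of all tested genes 12.7% were called at that time. Of 6 megakaryocyte and platelet markers, Itga2b and Pf4 were above background and Gp9, Gp1bb, Gp5 and Ppbp below, with sums of 3017.0 to 3650.6 at 24 h and 2870.6 to 3410.9 at baseline. The group means of Itga2b, 3.99 to 4.19 log2, lay within the 3.62 to 4.22 log2 span of array backgrounds. These sums therefore rest mostly on Pf4. The part of osteoclast-like cells in the fall of Itgb3 was not tested.

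Itgav, the αv chain, was called at 4, 10 and 24 h. It had 9.88, 9.84 and 9.80 log2 at 24 h, against 10.13, 10.42 and 10.16 at baseline. Every array at 4, 10 and 24 h lay below every baseline array, the 24 h change being -0.40 ± 0.07 log2, or 75.9% of baseline (limma adjusted p = 0.000253). The change was -0.35 ± 0.07 log2 at 10 h (limma adjusted p = 0.000947) and -0.25 ± 0.07 log2 at 4 h (limma adjusted p = 0.0295). The 4 h call was lost without 4 h replicate 1 (-0.26, adjusted p = 0.07), 4 h replicate 3 (-0.20, adjusted p = 0.159) or baseline replicate 2 (-0.16, adjusted p = 0.233), and its adjusted p ran from 0.00132 to 1 over 31 alternatives. The direction turned with the Itgav probe set of largest variance, a dimmer set, at 0.15, 0.13 and 0.30 log2 at 4, 10 and 24 h, none of them called. With the mean of all Itgav sets the change was -0.083 log2 at 24 h (limma adjusted p = 0.592) and -0.12 at 10 h (0.389), and neither was called.

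Itgb5, the β5 chain, moved the other way. Its arrays were at 9.61, 9.67 and 9.71 log2 at 24 h, against 9.32, 9.28 and 9.31 at baseline. The groups stood well apart, with a change of 0.36 ± 0.06 log2, or 128% of baseline (limma adjusted p = 6.61e-05). At 10 h the arrays were at 9.66, 9.45 and 9.54 and the change was 0.25 ± 0.06 log2 (limma adjusted p = 0.00406). When arrays were also centred on their medians the 24 h change of Itgb5 was 0.24 log2 (limma adjusted p = 0.014) and the 10 h change 0.13 log2 (limma adjusted p = 0.196), no longer called, within a range of 0.00159 to 1 for the 10 h call over 31 alternatives.

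In the β1 family only 1 chain was called at 24 h. Itga5, the α5 chain of the fibronectin receptor, rose at 2 h and overlapped the baseline arrays at 4, 10 and 24 h. Its arrays were at 5.12, 4.84 and 4.24 log2 at 2 h, against 4.24, 3.85 and 3.66 at baseline. The lowest array at 2 h only just cleared the highest at baseline, and the change was 0.82 ± 0.18 log2, or 176% of baseline (limma adjusted p = 0.00906). At 1 h it was 0.61 ± 0.18 log2 higher (limma adjusted p = 0.351), not called among all genes. The change was 0.26 ± 0.18 log2 at 4 h (limma adjusted p = 0.489) and 0.32 ± 0.18 log2 at 10 h (limma adjusted p = 0.287). At 24 h it was -0.02 ± 0.18 log2 (limma adjusted p = 0.967). Itga5 was close to background, above the level of its own array on 16 of 18 arrays, with 1 array at 4 h and 1 at 24 h below it. The 2 h call was lost without 2 h replicate 1 (0.62, adjusted p = 0.114), 2 h replicate 2 (0.77, adjusted p = 0.0543), baseline replicate 2 (0.78, adjusted p = 0.0501) or baseline replicate 3 (0.69, adjusted p = 0.0884), with a range of 0.000341 to 0.263 over 31 alternatives.

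Itga4, the α4 chain, had 8.72, 8.70 and 8.77 log2 at 24 h and 8.62, 8.99 and 8.85 at baseline, and no call at any time against baseline. Its group mean was highest at 4 h, with arrays at 8.98, 9.10 and 9.14 that overlapped those at baseline. The 4 h difference from baseline was 0.25 ± 0.09 log2 (limma adjusted p = 0.0833). It was called with the replicate number as a block (limma adjusted p = 0.0241) and without baseline replicate 2, at 0.34 log2 (limma adjusted p = 0.0242), the range over 31 alternatives being 0.0241 to 1. The F test over the times called Itga4 (limma adjusted p = 0.016).

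Itgb1, the β1 chain, had 10.22, 10.25 and 10.09 log2 at 24 h, against 10.37, 10.33 and 10.37 at baseline. The arrays at 24 h all lay below baseline, by a small mean change of -0.17 ± 0.05 log2, or 88.9% of baseline (limma adjusted p = 0.027). The call was lost without baseline replicate 1 (-0.16, adjusted p = 0.0753), baseline replicate 3 (-0.165, adjusted p = 0.0759) or 24 h replicate 3 (-0.12, adjusted p = 0.186), over a range of 0.00141 to 1 in 30 alternatives. The call was also lost with no intensity trend (limma adjusted p = 0.0883) and with only the 2 groups compared (0.0531). With arrays centred on their medians Itgb1 read -0.29 log2 (limma adjusted p = 0.00141). On that scale the median change of all tested genes at 24 h was -0.11 log2, against 0.01 as deposited. At 10 h Itgb1 was at -0.14 ± 0.05 log2 as deposited (limma adjusted p = 0.0791), not called, with every array below every baseline array.

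From each time to the next, the calls lay after 4 h. From 1 to 2 h limma called 0 members, with 0 at an unadjusted p under 0.05, where 1.12% of all genes were called. Between 2 and 4 h it also called 0, with 2 at an unadjusted p under 0.05, where 1.9% of all genes were called. From 4 to 10 h it called 4 members, 2 upward and 2 downward, where 4.18% of all genes were called (2.35% upward, 1.83% downward). These were Itgam (0.37 ± 0.09 log2, limma adjusted p = 0.011), Itgb5 (0.27 ± 0.06, 0.00575), Itgb3 (-0.90 ± 0.21, 0.0128) and Itga4 (-0.40 ± 0.09, 0.00657). The Itga4 arrays at 10 h, at 8.76, 8.53 and 8.73, all lay below those at 4 h. The Itgam step was lost without 4 h replicate 3 (adjusted p = 0.0845) or 10 h replicate 3 (adjusted p = 0.0543), and the Itgb3 step without 4 h replicate 1 (adjusted p = 0.0817) or 10 h replicate 2 (adjusted p = 0.0724).

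Between 10 and 24 h 1 member was called, Itgax at -0.59 ± 0.15 log2 (limma adjusted p = 0.0425), where 2.16% of all genes were called. This call did not hold in 8 of 18 fits that each left out 1 array, with adjusted p of 0.0884, 0.144 and 0.117 without 24 h replicates 1, 2 and 3, 0.186 and 0.0734 without 10 h replicates 2 and 3, 0.0501 and 0.0532 without 4 h replicates 1 and 2, and 0.0527 without 1 h replicate 3. The range over 31 alternatives was 0.0213 to 1. Itgb3 was lower still at 24 h than at 10 h, by -0.58 ± 0.21 log2, without passing the test (limma adjusted p = 0.205). Itgal differed by 0.54 ± 0.19 log2 over the same step (limma adjusted p = 0.194). With the replicate number as a block, both Itgb3 and Itgal were called in this step, though the labels tie no number to a mouse.

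Several members had further probe sets, which served as a check. The second bright set of Itgb5 also rose at 24 h, by 0.27 ± 0.06 log2 (limma adjusted p = 0.00267). That of Itgb1 also fell at 24 h, by 0.19 ± 0.05 on the log2 scale (limma adjusted p = 0.00816). Both sets were called at 10 h too, Itgb5 at 0.18 ± 0.06 log2 (limma adjusted p = 0.0485) and Itgb1 at -0.16 ± 0.05 log2 (0.0226). A dimmer Itgb1 set, above background on all 18 arrays at a mean of 6.62 log2, was not called. It changed by -0.09 ± 0.10 log2 at 24 h (limma adjusted p = 0.613). Itgav had a second set above background on all 18 arrays, at a mean of 4.94 log2, whose 24 h change was 0.30 ± 0.20 log2 (limma adjusted p = 0.373), opposite in sign to the brightest set. The other 3 Itgav sets were above background on 4, 0 and 0 arrays. The second sets of Itgb3 and Itgal were above background on 1 and 0 arrays, with changes of -0.01 and 0.06 log2, so those genes each rest on 1 measurable set. Of the 4 further Itga4 sets none was called at 24 h, with changes of -0.19 to 0.04 log2. Itgam, Itgax, Itgb2 and Itga5 had 1 named set each. With the mean of all sets of a gene, dim ones included, Itgb3 was still called at 24 h, at -0.77 log2 (limma adjusted p = 0.00219). Itgal at 0.37 (adjusted p = 0.0847), Itgav, as given above, and Itgb1 at -0.13 (0.174) were then not called, and Itgb3 at 10 h, at -0.45 (0.0636), was not either.

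**Figure D3:**
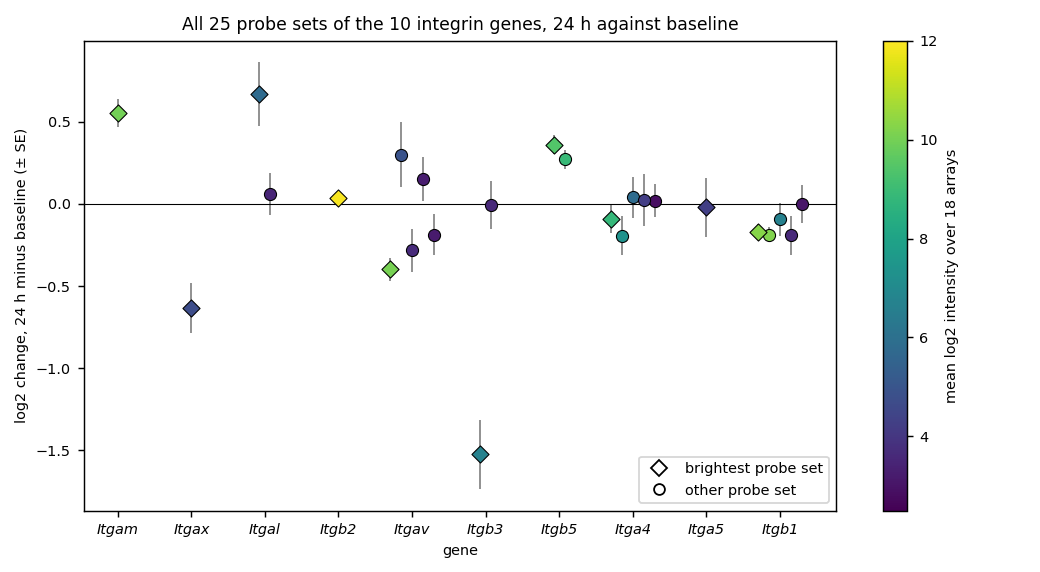
Log2 change at 24 h minus baseline (vertical axis, limma, bars are the SE) of the 25 named probe sets by gene (horizontal axis), diamonds for the brightest set of each gene and circles for the others, coloured by mean log2 intensity. The brightest sets of Itgb5 and Itgb1 have a second set on the same side of 0, and Itgav has a second set at 0.30 on the other side.

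Whether 2 members changed unequally was asked for 5 pairs, which were chosen after the values were seen. The log2 change of Itgb3 at 24 h minus that of Itgb5 was -1.89, and minus that of Itgav it was -1.13. For Itgam minus Itgax it was 1.19. In each of these 3 pairs the exact two-sided permutation test over 3 against 3 arrays gave p = 0.1, the smallest it can give, and 0.167 adjusted over the 5 pairs. The changes of Itgam and Itgal differed by -0.12 and those of Itga4 and Itgb1 by 0.08, both with an exact permutation p of 0.6. This design cannot bring such a test under 0.05.

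Genes that work with integrins held calls in both directions at 24 h, where 7.38% of all tested genes rose and 5.34% fell. Of the other integrin subunits, 10 of 17 listed were tested, and 2 rose and 1 fell at 24 h, with a median change of 0.06 log2 beside 0.01 for all genes. They were Itgb7, the partner of α4 in a gut homing receptor (0.43 ± 0.10, limma adjusted p = 0.00401), Itgb4 (0.38 ± 0.11, 0.0254, its mean below background) and Itga8 (-0.62 ± 0.17, 0.0144). Among activators and adaptors, the proteins that switch integrins on or tie them to actin, 7 of 32 tested rose and 3 fell, beside the same 7.38% and 5.34% of all genes, with a median of -0.03. Cytip, which binds cytohesin and limits β2 adhesion, rose by 1.08 ± 0.09 log2 (limma adjusted p = 1.84e-09), and its partner Cyth1 by 0.51 ± 0.09 (0.000129). Tln1, or talin, which activates integrins, fell by 0.31 ± 0.07 (0.00429), and Vcl, or vinculin, fell by 0.31 ± 0.06 (0.00109).

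Of 19 ligands tested 2 rose and 1 fell at 24 h, a share near the 12.7% of all genes called, with a median of -0.10 log2. Tgfbi, a matrix protein bound by several integrins, rose by 0.73 ± 0.06 log2 (limma adjusted p = 1.59e-09), and F11r, a junction protein bound by LFA-1, by 0.49 ± 0.16 (0.042). Mfge8, the bridge between apoptotic cells and αv integrins, fell by 0.37 ± 0.08 (0.00238). Of 18 membrane partners, such as tetraspanins, 4 rose and 4 fell, where 7.38% of all genes rose and 5.34% fell, with a median of -0.03. Cd9 fell by 0.59 ± 0.04 log2 (limma adjusted p = 1.13e-10), Cd36 by 0.39 ± 0.06 (2.08e-05) and Tspan4 by 0.34 ± 0.06 (7.41e-05), and Adam8 rose by 0.47 ± 0.07 (2.78e-05). Earlier, at 4 h, 3 activators, 2 ligands and 5 partners rose and 1 partner fell, while the other subunits gave no call by limma, and 7.52% of all genes were called. The counts of activators and ligands at 4 h lay near that share. Of the calls at 24 h named or counted here, those of 5 of 10 activators, 2 of 3 ligands, 5 of 8 partners and 2 of 3 other subunits held when arrays were centred on their medians, all in the same direction.

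**Figure D4:**
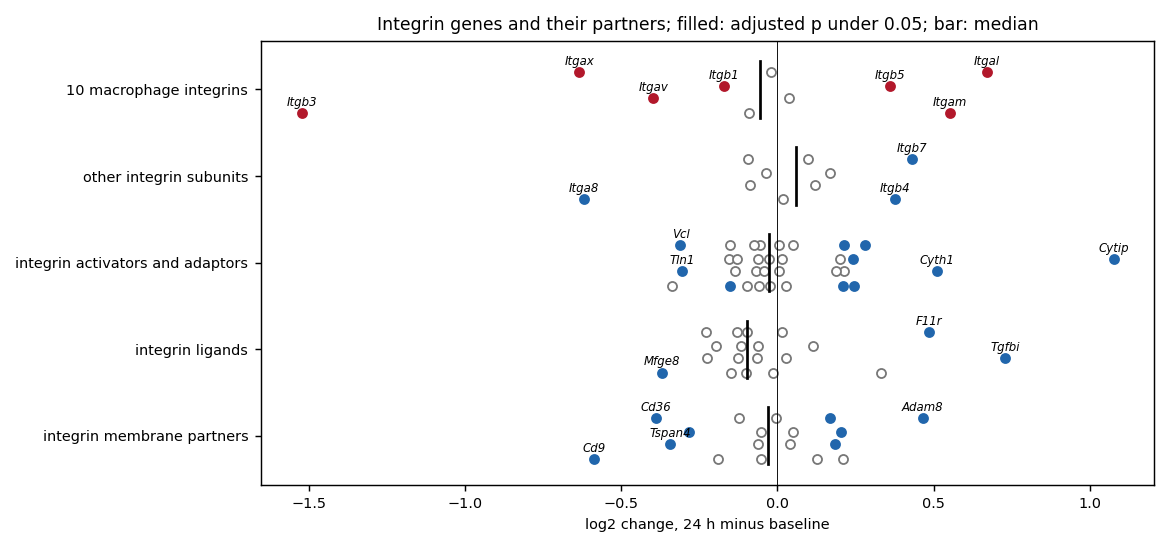
Log2 change at 24 h minus baseline (horizontal axis) of each tested gene in 5 groups of integrin genes (rows), filled where the limma adjusted p was under 0.05, with a bar at each group's median. Itgb3 at -1.52 and Cytip at 1.08 lie at the ends, and each median lies within 0.10 of 0.

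The genes most like Itgam and Itgb3, the members with the smallest F test p, were found by Pearson r of log2 intensity over the 18 arrays. Closest to Itgam were Lyzl4 (r = 0.922), Plod1 (0.918) and Nt5dc2 (0.915), which differed from baseline at 24 h by 1.19, 0.67 and 0.44 log2. Closest to Itgb3 were Me1 (0.956), Afp (0.944) and Pfkp (0.943), at -0.65, -1.15 and -0.31 log2. The arrays of one group share a treatment time, so these values describe shared time courses.

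A shift common to most genes would change the reading of small values. With arrays centred on their medians, the median of all tested genes at 24 h moved to -0.11 log2 and the share of calls that were rises was 20.6%, against 58% as deposited, and at 10 h 21.9% against 57.4%. The same 7 members were called at 24 h on that scale, in the same directions, and the uncalled Itgb2 read -0.09. Quantile normalization once more gave 48.5% rises at 24 h and left Itgal at 0.54 log2 (limma adjusted p = 0.0591), not called.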

How the data were processed

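The authors deposited linear intensities, 1 for each array and probe set. The submitters' processing notes name RMA and the affy package, without versions. RMA makes the arrays' distributions alike, so a change shared by most genes is not seen. Log2 of the deposited intensity was taken. Of 45141 probe sets, 28898 had 1 gene symbol, 551 several and 15588 none. A run of 211 evenly stepped values in baseline replicate 1 was left out, and 0 member probe sets lay in it. The brightest probe set stood for a gene, and genes with at least 3 arrays at or above the 40th percentile of their array were tested.

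Tests used limma 3.58.1 in R 4.3.3 over all 18 arrays with an intensity trend, with two-sided p-values adjusted by Benjamini-Hochberg over the 13190 genes of each comparison with a threshold of 0.05. Errors of changes are limma standard errors. The background level was the 95th percentile of 40 control probe sets, on each array. Named genes were all members, up to 4 called genes of each list by largest change at 24 h, the treatment check genes and the 3 genes most like each of 2 members. Marker genes are named beside results they bear on. The members and lists were chosen with earlier results of these data known.

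Replicates are called biological in the series text, and nothing says whether a number marks 1 mouse. Same-numbered arrays deviated together with r of 0.024 to 0.29 over 45 pairs, 35 of them over 0.1. On simulated data for 24 h minus baseline over 13190 genes, the fit recovered 100% of genes changed by 2 log2 units, 92% of those raised by 1, 98% of those lowered by 1 and 62% of those raised by 0.5. Of its 188 calls 12 were false. The simulation changed fewer genes than were called at 24 h and gave the arrays independent errors, so recovery in the data may differ. Array counts limit the precision. Alternatives covered the probe set, filter, trend, scaling, replicate block, samples in the fit, array weights, a minimum fold of 1.2, the stepped run and leaving out each array. The test against that fold asks for a change beyond it, unlike the others, and is counted in the quoted ranges of adjusted p. It set the upper end at least for Itgav at 4 h, Itgb5 at 10 h, Itgb1 at 24 h and Itgax from 10 to 24 h. The same holds for Itgal at 24 h (limma adjusted p = 0.484) and Itga5 at 2 h (limma adjusted p = 0.263).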

Additional observations from a re-analysis of the deposited data

How the results depend on the processing

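Over 31 alternatives, 18 of them leaving out 1 array, the 24 h calls of Itgam and Itgb3 held in all. Of 619 values of 20 member changes, 554 kept direction and call, 59 lost and 2 gained a call, and 4 reversed. These were Itgav at 4, 10 and 24 h with the probe set of largest variance (0.15, 0.13 and 0.30) and Itgb2 at 10 h with arrays centred on their medians (-0.046). Itgb1 had no value with that probe set, which the filter removed. The causes were not tested.

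Counts of called members, where they moved by over 1.5 times, were as follows. At 2 h the count was 0 with only the 2 groups compared and against a fold of 1.2. At 4 h it was 0 with the probe set of largest variance, the mean of all probe sets, no intensity trend, only the 2 groups compared or a fold of 1.2, and 2 with the replicate block. At 10 h it was 2 with the mean of all probe sets and 0 against a fold of 1.2. At 24 h the count was 4 with the mean of all probe sets and 2 against that fold (Itgam and Itgb3). Between 2 and 4 h the block gave 1. From 4 to 10 h the count was 2 with no trend and 0 against the fold. From 10 to 24 h it was 3 with the block, which added Itgb3 (adjusted p = 0.0223) and Itgal (adjusted p = 0.0252), and 0 with the probe set of largest variance, no filter, only the 2 groups or the fold.

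Counts over all genes moved as follows. With the probe set of largest variance the steps from 2, 4 and 10 h to the next time gave 142, 359 and 172 genes, with no trend 129, 321 and 124, and with the replicate block 500, 945 and 547. The mean of all probe sets gave 157 from 2 to 4 h. The block gave 93 at 1 h and 432 at 2 h. Only the 2 groups compared gave 1257 at 10 h, 344 from 4 to 10 h and 176 from 10 to 24 h. Against a fold of 1.2 the counts were 23, 107, 243, 386 and 370 at 1, 2, 4, 10 and 24 h, and 36, 20, 60 and 26 for the 4 steps. The labels tie no replicate number to a mouse; in 44 of 45 cases an array correlated best with its own number, a hint from the data and not the design. The block changed no other count of members by over 1.5 times.

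Leaving out 1 array gave 0 to 1 members at 2 h, 4 h, from 2 to 4 h and from 10 to 24 h, 4 to 5 at 10 h, 6 to 7 at 24 h, 3 to 4 from 4 to 10 h and 6 to 8 over the series. Over all genes it gave 41 to 55, 249 to 298, 708 to 1076, 1463 to 1902 and 1249 to 1810 at the 5 times, 90 to 164, 137 to 283, 316 to 585 and 145 to 314 in the 4 steps, and 1987 to 2273 over the series. Of 1116 counts of the gene lists under alternatives, 1026 stayed within 1.5 times.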
